A study of Homo sapiens with 6 samples.

Results

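The transcripts of 10 genes that encode proteins of centriole duplication and of the pericentriolar material were followed in SaOS-2 cells before and after induction of p21. The genes SASS6, STIL, CEP152, CEP192, CEP63, CENPJ, CEP135, PCNT, CDK5RAP2 and NEDD1 were chosen by symbol, and all 10 were found among the 23228 gene names of the deposited table. SaOS-2 is an osteosarcoma cell line that lacks p53 and functional RB. In all 6 libraries the cells carried a Tet-inducible p21 vector, which doxycycline switches on. Cells of the p21 OFF group (n = 3) were untreated, and cells of the p21 ON group (n = 3) received 1 μg/ml doxycycline, for 24 h by the labels. Doxycycline was not given to cells without the vector in the libraries analysed here, so effects of the drug and of p21 cannot be told apart. Whether the line is a single clone is not given in the sources used here. The study's methods speak of biological replicates, but the labels do not say whether the libraries of a group came from separate cultures, and if they did not, the p-values measure only the spread between these libraries, which may be technical.

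The libraries held 12795490 to 21975045 reads on genes, and the values below are normalized counts, which are reads divided by the DESeq2 size factor of the library. CDKN1A, the gene of p21, went from 1266 ± 84.5 normalized counts in p21 OFF to 43691 ± 3138 in p21 ON cells (SD, n = 3 each). Of 7 osteoblast lineage markers, RUNX2, SP7, ALPL and COL1A1 had means of 3403 to 37302 normalized counts in both groups, while SPP1 was near 0 and BGLAP was listed at 0. The remaining marker, IBSP, was weakly expressed and lower in p21 ON cells (129 ± 8.66 against 99.0 ± 3.20 normalized counts, SD, n = 3 each; log2 fold change -0.38, limma adjusted p = 0.0264). The single immune marker PTPRC stayed at or below 10.5, the endothelial markers PECAM1 and CDH5 summed to 8.87 to 17.6, and the epithelial markers EPCAM and CDH1 summed to 295 to 377, nearly all of it EPCAM. The library p21 OFF replicate 1 stood apart from the others of its group, with a chi-square per gene of 8.48 and 9.28 against them, where the other pairs of replicates gave 2.71 to 3.97 and sampling alone gives about 1. It was the lowest of the p21 OFF libraries for 8 of the 10 genes, and the effect of leaving it out is given below for several results.

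The centriole is the microtubule cylinder at the heart of the centrosome, and a cycling cell builds a new one beside each parent during S phase. The kinase PLK4 is brought to the parent centriole by CEP192 and by CEP152 with its partner CEP63. PLK4 phosphorylates STIL, which brings in SASS6, the protein that assembles the cartwheel on which the new centriole forms. CEP135 ties the cartwheel to the microtubule wall, and CENPJ (also called CPAP) binds tubulin and drives growth of the wall. Around the centrioles lies the pericentriolar material, in which pericentrin (PCNT) and CDK5RAP2 are scaffolds and NEDD1 tethers the gamma-tubulin ring complexes that nucleate microtubules. Mutations in several of these genes, among them CENPJ, STIL, CEP152, CEP135 and CDK5RAP2, cause primary microcephaly.

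After p21 induction the transcripts of SASS6 and STIL (cartwheel), CENPJ and CEP135 (wall) and CEP152 fell by 39.2% to 49.2%. Those of the large scaffolds CEP192 and PCNT were close to their starting level. By limma with Benjamini-Hochberg adjustment over 13255 genes, 7 of the 10 genes were lower in p21 ON cells, where 12.7% of all genes tested were called lower. None of the 10 was higher, where 10.5% of all genes tested were called higher, and at an unadjusted limma p under 0.05 the number was also 0. At an adjusted p under 0.05 it was 0 by edgeR and by DESeq2 too. All 10 passed the filter on low values, a mean of at least 10 normalized counts. The median log2 fold change of the 10 genes was -0.48, and that of all genes tested was 0.0056. The value of -0.48 lies in a gap between CEP135 (-0.72) and NEDD1 (-0.24), with no gene near it. For the same 7 genes, the p21 ON libraries were wholly below the p21 OFF libraries, which held for 21.3% of all genes tested. RNA was taken from whole cultures, so fewer cells in a given phase of the cycle and less RNA per cell cannot be told apart in any of these values. Without p21 OFF replicate 1, 7 genes were again lower and the median log2 fold change was -0.51.

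**Figure D1:**
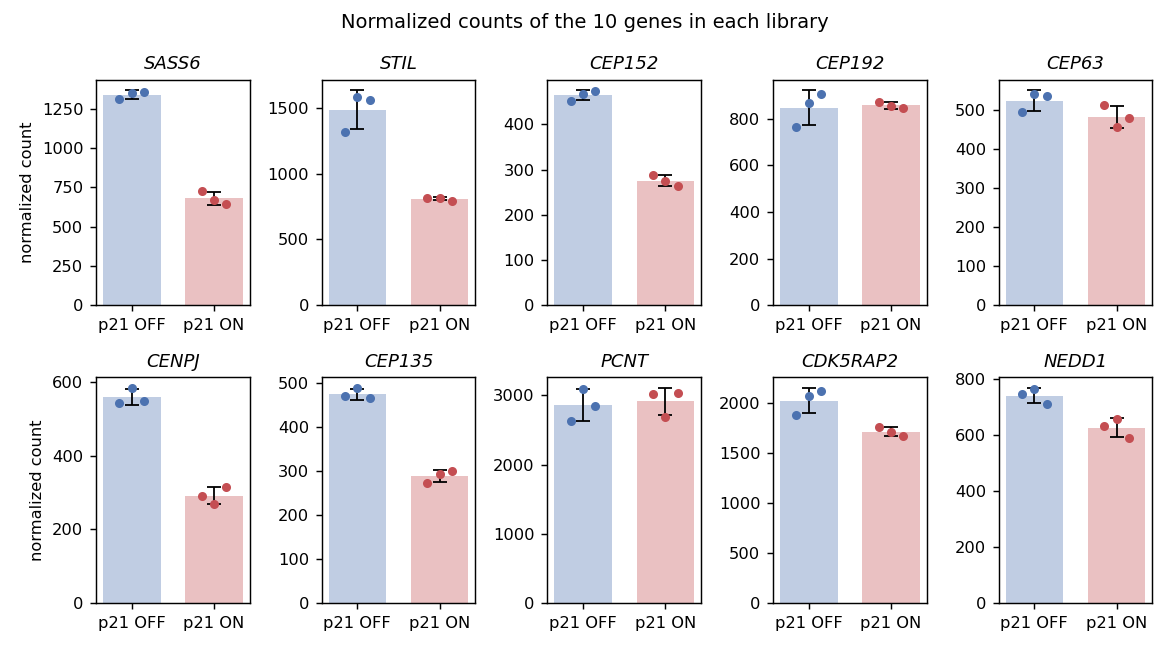
Normalized counts of the 10 genes in the 3 p21 OFF (blue) and 3 p21 ON (red) libraries; points are libraries, bars are group means and error bars are SDs, and each panel has its own axis from 0. In the panels of SASS6, STIL, CEP152, CENPJ and CEP135 the red points lie far below the blue points, and in those of CEP192, CEP63 and PCNT the groups overlap.

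The windows around the transcription starts of 5 of the genes are shown so that genes that fell can be read beside one that was not called. They run from 250 bases before to 50 bases after the RefSeq start, in the direction of transcription, and were taken from the RefSeq promoter table (GRCh38.p14). Each was searched in GRCh37 only on its own chromosome and strand, and was matched there at 1 place, whose coordinates are given. Capitals mark the CHR element (TTTGAA or TTCGAA), which MuvB complexes bind in G2/M promoters, E2F-like sites (any of TTCCCGC and TTGGCGC and also TTCGCGC and lastly TTGCCGC) and the CCAAT box of NF-Y, searched on both strands, so that a match on the other strand stands in capitals as its reverse complement. No matches overlapped in these windows.
SASS6, chr1:100598437-100598736, minus strand: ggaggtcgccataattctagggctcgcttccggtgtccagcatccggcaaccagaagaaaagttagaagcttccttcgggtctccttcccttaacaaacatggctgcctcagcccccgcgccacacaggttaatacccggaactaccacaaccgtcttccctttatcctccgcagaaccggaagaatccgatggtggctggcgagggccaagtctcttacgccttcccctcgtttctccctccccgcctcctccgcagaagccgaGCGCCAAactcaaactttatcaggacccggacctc
STIL, chr1:47779770-47780069, minus strand: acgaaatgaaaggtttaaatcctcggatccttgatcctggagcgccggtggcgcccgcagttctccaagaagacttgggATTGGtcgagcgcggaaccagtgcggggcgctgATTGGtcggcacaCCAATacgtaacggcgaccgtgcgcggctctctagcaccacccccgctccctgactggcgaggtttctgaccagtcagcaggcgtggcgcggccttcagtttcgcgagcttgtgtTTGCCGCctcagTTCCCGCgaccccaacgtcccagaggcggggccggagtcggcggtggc
CENPJ, chr13:25496950-25497249, minus strand: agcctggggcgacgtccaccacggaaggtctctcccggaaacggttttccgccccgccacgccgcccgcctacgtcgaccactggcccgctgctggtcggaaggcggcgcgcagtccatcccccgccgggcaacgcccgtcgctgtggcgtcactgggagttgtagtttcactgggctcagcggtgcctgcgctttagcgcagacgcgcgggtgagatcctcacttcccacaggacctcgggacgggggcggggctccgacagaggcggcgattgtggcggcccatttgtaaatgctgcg
CEP135, chr4:56814861-56815160, plus strand: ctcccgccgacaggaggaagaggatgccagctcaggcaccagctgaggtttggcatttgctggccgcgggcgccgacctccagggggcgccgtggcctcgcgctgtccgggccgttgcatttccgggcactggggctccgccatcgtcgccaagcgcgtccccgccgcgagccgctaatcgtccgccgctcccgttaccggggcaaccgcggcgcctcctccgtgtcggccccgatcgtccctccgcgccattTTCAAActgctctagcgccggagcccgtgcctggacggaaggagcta
CEP192, chr18:12991111-12991410, plus strand: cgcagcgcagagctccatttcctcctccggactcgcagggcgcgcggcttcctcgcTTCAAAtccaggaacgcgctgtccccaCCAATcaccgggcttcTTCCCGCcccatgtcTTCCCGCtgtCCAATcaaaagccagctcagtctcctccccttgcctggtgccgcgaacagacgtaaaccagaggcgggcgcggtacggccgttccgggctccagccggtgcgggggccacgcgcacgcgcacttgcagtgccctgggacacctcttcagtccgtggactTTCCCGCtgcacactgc

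The largest fall among the 10 genes was that of SASS6, which encodes the building block of the cartwheel, although its 95% interval (-1.12 to -0.84) overlapped those of CENPJ (-1.12 to -0.77) and STIL (-1.03 to -0.72). SASS6, on the minus strand of chromosome 1 (GRCh37, 100549119 to 100598511), had 1309.9, 1351 and 1360.05 normalized counts with p21 OFF and 725, 670.2 and 646 with p21 ON. The groups did not overlap, and the highest p21 ON library lay far below the lowest p21 OFF library. The mean went from 1340.4 ± 26.8 to 681 ± 40.6 (SD, n = 3 each), a decrease of 49.2%. The log2 fold change was -0.98 (SE 0.07, limma adjusted p = 3.84e-09), and 162 of the 13255 genes tested had a change as low or lower. Exons of SASS6 overlap those of another gene annotated on the same strand, ENSG00000241073. The same holds for CEP63 (ENSG00000288700) and PCNT (ENSG00000286224).

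STIL, the partner of SASS6 and substrate of PLK4, lies on chromosome 1 from 47715811 to 47780564 on the minus strand. Its p21 OFF libraries held 1319.9, 1579 and 1563 normalized counts and its p21 ON libraries 815, 814 and 795. The p21 ON libraries were tightly grouped below all p21 OFF libraries, among which replicate 1 was the low one. The mean decreased by 45.7%, from 1487 ± 144.96 to 808 ± 11.02 (SD, n = 3 each), with a log2 fold change of -0.87 (SE 0.07, limma adjusted p = 6.40e-08). Without p21 OFF replicate 1 the log2 fold change was -0.96. The ratio of STIL to SASS6 within a library was 1.11 ± 0.0876 in p21 OFF and 1.19 ± 0.0578 in p21 ON cells (SD, n = 3 each), a difference within the spread of the libraries (exact permutation test, two-sided p = 0.3, adjusted 0.36). The smallest p that 3 libraries against 3 allow is 0.1, and this and the other ratios were chosen after the values were seen, 6 in all, over which Benjamini-Hochberg adjusted values are given.

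CENPJ and CEP135, the genes of the centriole wall among the 10, fell as well. CENPJ, on chromosome 13 from 25456417 to 25497027 on the minus strand, had 545, 584 and 549.9 normalized counts with p21 OFF and 291, 268 and 315 with p21 ON. Its mean went from 559.8 ± 21.4 to 291 ± 23.2 (SD, n = 3 each), with a log2 fold change of -0.94 (SE 0.08, limma adjusted p = 1.41e-07), with no overlap of the groups. CEP135, on chromosome 4 from 56815037 to 56899527 on the plus strand, had 471, 489 and 466 normalized counts with p21 OFF and 274, 292 and 300.3 with p21 ON. Every p21 ON library was again below every p21 OFF library. The mean of CEP135 decreased by 39.2%, from 475 ± 12.2 to 289 ± 13.7 (SD, n = 3 each), and the log2 fold change was -0.72 (SE 0.08, limma adjusted p = 3.71e-06). The ratio of CENPJ to CEP135 was 1.18 ± 0.019 in p21 OFF and 1.01 ± 0.0807 in p21 ON cells (SD, n = 3 each), lower in all p21 ON libraries (two-sided p = 0.1 by an exact permutation test, adjusted 0.15).

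The genes that bring PLK4 to the parent centriole parted from one another. CEP152, on chromosome 15 from 49005125 to 49103343 on the minus strand, had 452, 468 and 473 normalized counts with p21 OFF and 289, 274 and 264 with p21 ON. Its groups did not overlap, and the mean went from 464 ± 10.9 to 276 ± 12.3 (SD, n = 3 each), with a log2 fold change of -0.75 (SE 0.08, limma adjusted p = 2.14e-06). CEP192, on chromosome 18 from 12991361 to 13125051 on the plus strand, had 765, 869 and 908 normalized counts with p21 OFF and 873, 853 and 846 with p21 ON. All 3 p21 ON libraries lay within the range of the p21 OFF libraries. The log2 fold change of CEP192 was 0.02 (SE 0.07, limma adjusted p = 0.866), with a 95% interval of -0.13 to 0.17, that is 0.911-fold to 1.13-fold. CEP63, on chromosome 3 from 134204541 to 134306631 on the plus strand, had 495, 542 and 537 normalized counts with p21 OFF and 513, 457 and 479.9 with p21 ON. Here p21 ON replicate 1 lay above p21 OFF replicate 1, and the log2 fold change of -0.12 (95% interval -0.28 to 0.05, limma adjusted p = 0.284) did not pass the threshold. With a trend with exonic length taken out of each library, CEP63 was called lower, with a log2 fold change of -0.25 (limma adjusted p = 0.0146). Without p21 OFF replicate 1 its log2 fold change was -0.16 (limma adjusted p = 0.143).

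Within each library the level of CEP152 was set against that of its neighbours in the pathway. The ratio of CEP152 to CEP192 was 0.591, 0.539 and 0.521 with p21 OFF and 0.331, 0.321 and 0.312 with p21 ON, a log2 difference of -0.77 (two-sided p = 0.1 by an exact permutation test, adjusted 0.15). The ratio of CEP152 to CEP63, its binding partner, was 0.886 ± 0.0257 in p21 OFF and 0.571 ± 0.0258 in p21 ON cells (SD, n = 3 each), a log2 difference of -0.63 with the same p = 0.1 by an exact permutation test. Both ratios were lower in every p21 ON library than in every p21 OFF library. These pairs were also chosen after the values were seen. CEP152 overlaps exons annotated on the opposite strand (ENSG00000259670 and ENSG00000259700), and CEP63 those of ANAPC13. Whether the counting used strand is not given in the sources used here, so these overlaps may have affected the counts of CEP152 and CEP63.

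**Figure D2:**
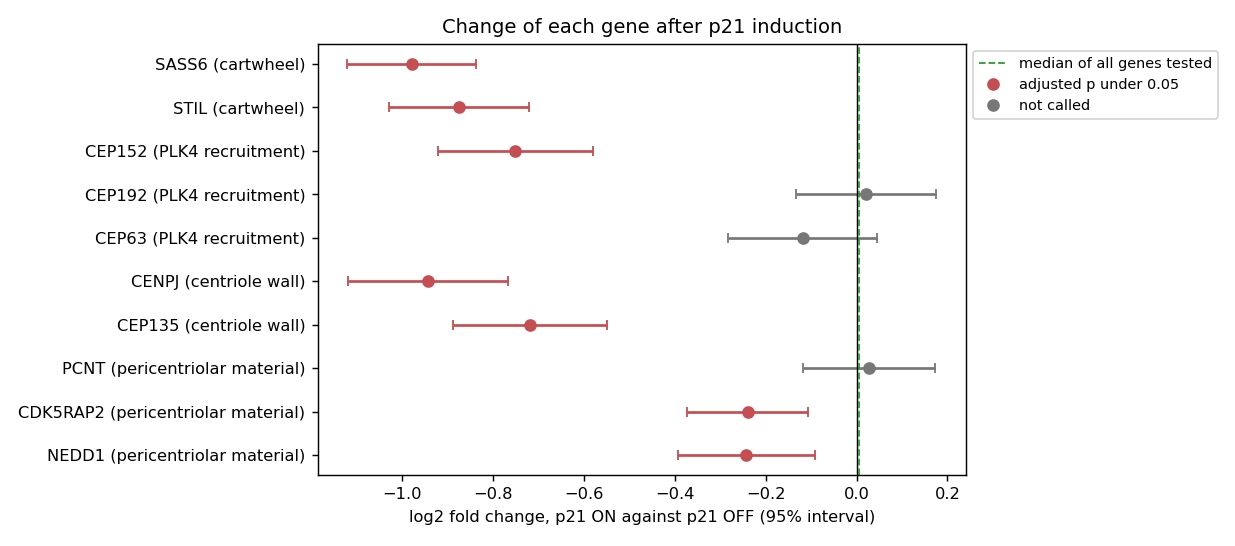
Log2 fold change of each gene in p21 ON against p21 OFF cells with its 95% interval from limma; red points passed an adjusted p-value of 0.05, grey points did not, and the dashed green line is the median of all genes tested. SASS6, STIL, CENPJ, CEP152 and CEP135 lie between -0.98 and -0.72, NEDD1 and CDK5RAP2 at -0.24, and the intervals of CEP192, CEP63 and PCNT include 0.

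Among the genes of the pericentriolar material the changes were small. PCNT, on chromosome 21 from 47744038 to 47865682 on the plus strand, had 2632, 3096 and 2852 normalized counts with p21 OFF and 3019, 2692 and 3027 with p21 ON. All p21 ON libraries lay within the range of the p21 OFF libraries, and the log2 fold change of 0.03 (95% interval -0.12 to 0.17, limma adjusted p = 0.809) was within the spread between replicates. The sign of the change of CEP192 and of PCNT turned negative without p21 OFF replicate 1 (-0.05 and -0.03) and with the length trend taken out (-0.05 and -0.08), and neither gene was called in any fit. CDK5RAP2, on chromosome 9 from 123151153 to 123342448 on the minus strand, had 1881, 2071 and 2117 normalized counts with p21 OFF and 1758, 1707 and 1669 with p21 ON. All p21 ON libraries were below all p21 OFF libraries, and the mean decreased by 15.4% (log2 fold change -0.24, standard error 0.06, limma adjusted p = 0.0115). CDK5RAP2 was no longer called without p21 ON replicate 3 (log2 fold change -0.22, limma adjusted p = 0.058). Without p21 OFF replicate 1 its log2 fold change was -0.29 (limma adjusted p = 0.000204).

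NEDD1, on chromosome 12 from 97301002 to 97347558 on the plus strand, had 745, 763 and 711 normalized counts with p21 OFF and 631, 656 and 589 with p21 ON. The groups did not overlap, and the log2 fold change was -0.24 (SE 0.07, limma adjusted p = 0.0207), a decrease of the mean by 15.5%. The call of NEDD1 was lost on leaving out replicate 2 of p21 OFF, or replicate 1 or 3 of p21 ON, and under scaling by library size alone, with log2 fold changes of -0.22, -0.25, -0.20 and -0.20. The ratio of NEDD1 to CDK5RAP2, which both act on the gamma-tubulin ring complex, was 0.367 ± 0.03 in p21 OFF and 0.365 ± 0.0164 in p21 ON cells (SD, n = 3 each; exact permutation test, two-sided p = 1). The ratio of SASS6 to PCNT went from 0.47 ± 0.0311 to 0.234 ± 0.0185 (SD, n = 3 each), with no overlap (two-sided p = 0.1 by an exact permutation test, adjusted 0.15). Like the other ratios, this pair was chosen after the values were seen, so it restates the changes given above.

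Levels of different genes were compared as normalized counts per kb of the canonical transcript. In p21 OFF cells SASS6 had the highest level per kb, 348 ± 6.97, followed by CDK5RAP2 (325 ± 20.0), STIL (296 ± 28.9) and PCNT (272 ± 22.0; SD, n = 3 each). The lowest library of SASS6 (340.4 per kb) lay barely above the highest of CDK5RAP2 (339.7 per kb). CDK5RAP2 and STIL overlapped, as did STIL and PCNT. NEDD1 stood alone at 184 ± 6.58 per kb. CENPJ and CEP192 overlapped at 110.1 ± 4.21 and 106 ± 9.31 per kb, and CEP63, CEP135 and CEP152 were lowest, at 90.8 ± 4.51, 84.9 ± 2.19 and 83.5 ± 1.96, each overlapping the next. In p21 ON cells the order was led by PCNT (277 ± 18.2 per kb) and CDK5RAP2 (275 ± 7.18), which overlapped, and SASS6 (177 ± 10.5) and STIL (161 ± 2.19) were next in order. STIL overlapped NEDD1 (156 ± 8.36), and CEP192 (108 ± 1.78) and CEP63 (83.6 ± 4.91) followed. CENPJ, whose mean was above those of CEP192 and CEP63 in p21 OFF cells, came after both (57.3 ± 4.57 per kb). CEP135 (51.6 ± 2.45) and CEP152 (49.6 ± 2.22) were again last, with CENPJ overlapping CEP135 and CEP135 overlapping CEP152.

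**Figure D3:**
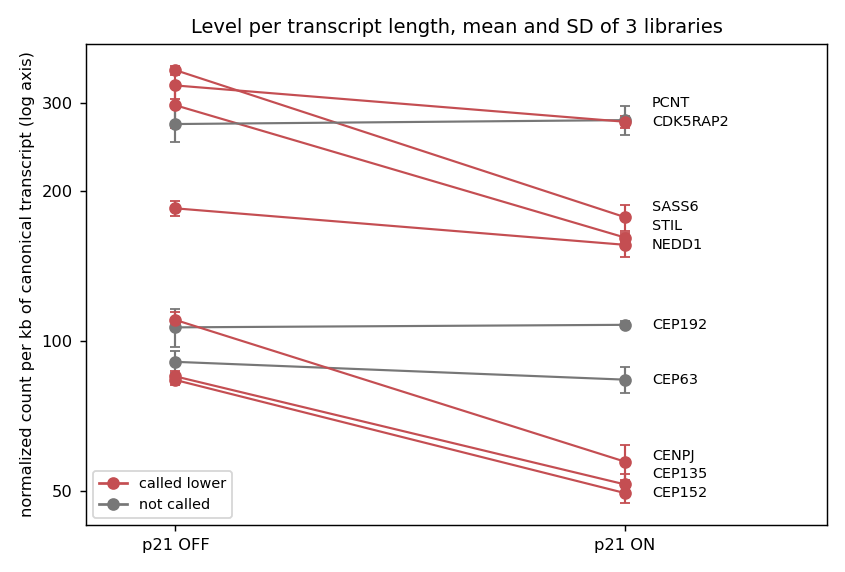
Normalized count per kb of canonical transcript (log axis) for each gene in p21 OFF and p21 ON cells; points are means and error bars SDs of 3 libraries, with genes called lower in red and genes not called in grey. The line of SASS6 crosses those of PCNT and CDK5RAP2, that of STIL crosses the line of PCNT, and that of CENPJ crosses those of CEP192 and CEP63.

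The cell cycle lists used in the study, which were taken from an earlier meta-analysis of cell cycle datasets, hold 5 of the 10 genes. STIL, CEP135, CEP192 and PCNT are in its low-stringency G2/M list, and 2 of these 4 (STIL and CEP135) were called lower. CEP152 is in the low-stringency G1/S list and was called lower. SASS6, CENPJ, CDK5RAP2, NEDD1 and CEP63 are in none of its lists, and 4 of these 5 were called lower. Of all genes tested 12.7% were called lower. The calls of CDK5RAP2 and NEDD1 held under 16 and 13 of 17 alternative fits. No test was made between listed and unlisted genes.

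The windows printed above were compared in the same way. SASS6 held a single E2F-like match on the minus strand at bases 16 to 22 after the start, and STIL held E2F-like matches at -10 to -4 and at 3 to 9 besides 3 CCAAT boxes. The upstream end of STIL in GENCODE, 47780564, lies outside its window (47779770 to 47780069), so its positions hold for the RefSeq start only. CEP135 held a CHR at bases 4 to 9 after the start, on the minus strand, and CENPJ, whose transcript fell by 48.0%, held no match to any of the motifs searched. CEP192, which was not called, held all kinds, with a CHR at -194 to -189, 3 E2F-like matches and 2 CCAAT boxes. CEP152, which was called lower and whose window is not printed, also held all kinds, with a CHR at -179 to -174. A CHR was found in 3 of the 7 genes called lower (CEP152, CEP135 and CDK5RAP2) and in 1 of the 3 not called, an E2F-like match in 4 of 7 and 2 of 3, and a CCAAT box in 2 of 7 and 2 of 3, counting a gene with several starts if any of them had the match. Of all 35116 RefSeq windows of this length, 16.4% held a CHR, 12.97% an E2F-like match and 34.6% a CCAAT box. A match is a description of the letters and shows neither binding nor a cause.

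**Figure D4:**
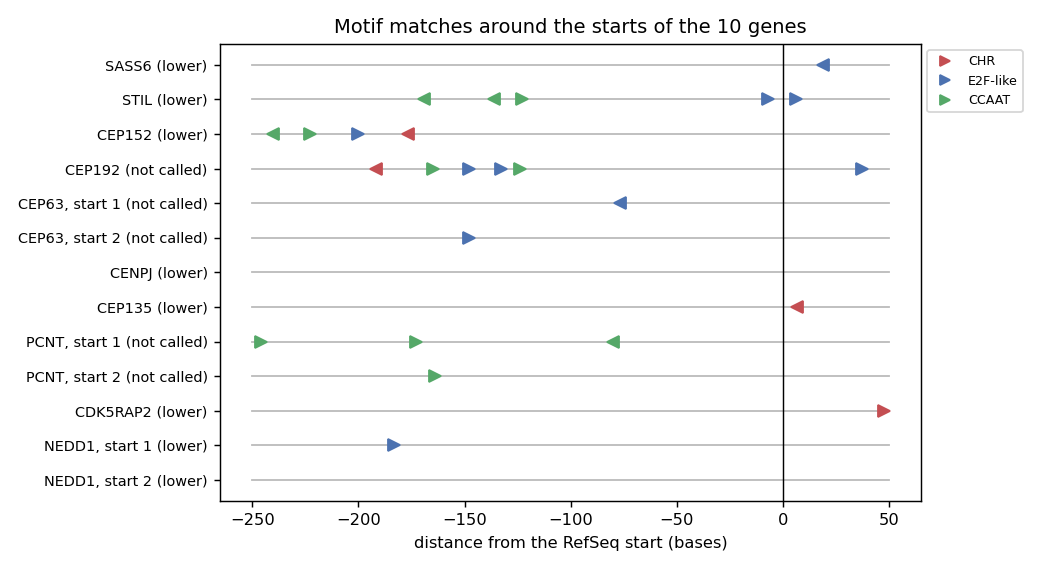
Positions of motif matches, in bases from the RefSeq start, in the windows of the 10 genes, with 1 line per start; triangles point right for the plus and left for the minus strand relative to transcription. The window of CENPJ, called lower, is empty, and that of CEP192, not called, holds 6 matches. The window of CEP152, called lower, holds 4 matches, which like those of CEP192 are of all kinds searched.

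The other genes of the centrosome cycle were taken from a list of 67, all of which passed the filter. Of these 67 genes 19 were called lower and 13 higher, with a median log2 fold change of -0.02; of all genes tested 12.7% were called lower and 10.5% higher, the shares against which the counts of each group below are to be read. PLK4, the kinase that starts duplication, had 873, 824 and 899 normalized counts with p21 OFF and 312, 318 and 311 with p21 ON. With a log2 fold change of -1.46 (SE 0.07, limma adjusted p = 7.36e-11), its fall was larger than that of any of the 10 genes. Among 10 regulators of duplication 3 were lower and 2 higher. Among 21 genes of the centriole wall and its length, 8 were lower and 2 higher, with a median of -0.12. There POC1A, a protein of the centriole wall, had 320.4 ± 5.51 normalized counts with p21 OFF and 121 ± 2.98 with p21 ON (SD, n = 3 each; log2 fold change -1.40, limma adjusted p = 3.01e-09). C2CD3, which acts in centriole growth and distal appendage assembly, rose from 953 ± 199 to 1300.2 ± 75.4 (SD, n = 3 each; log2 fold change 0.47, limma adjusted p = 0.00555). Its p21 OFF replicate 1 was low, at 725 normalized counts, and without that library the log2 fold change was 0.28 (limma adjusted p = 0.00107). C2CD3 was not called by DESeq2.

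Among 14 genes of the gamma-tubulin complexes and pericentriolar scaffolds, 3 were lower and 4 higher, with a median log2 fold change of 0.04. Of the 67 genes, 4 were called higher when p21 ON replicate 1 was left out and 7 when p21 ON replicate 3 was left out, against 13 with all libraries. Over all 13255 genes tested the number called higher fell as well, to 695 and 739 in these fits, against 1393 with all libraries. Of the 67 genes, between 16 and 22 were called lower as each library was left out in turn, and over all genes tested 887 to 1660.

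**Figure D5:**
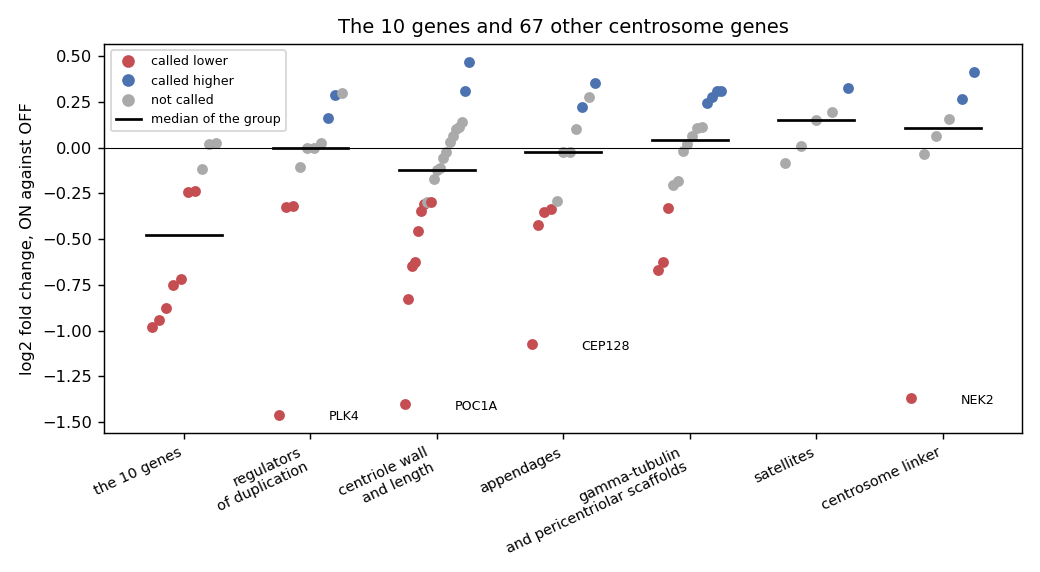
Log2 fold change in p21 ON against p21 OFF cells of the 10 genes and of 67 other centrosome genes by group; red points were called lower, blue points higher and grey points neither, and black lines are group medians. The median of the 10 genes lies at -0.48, those of the other groups between -0.12 and 0.15, with PLK4, POC1A, NEK2 and CEP128 below -1.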

How the data were processed

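The authors prepared stranded mRNA libraries from SaOS-2 cells, used STAR to map single-end reads to hg19, HTSeq to count reads on gene names and DESeq2 to normalize the counts; versions are not given in the sources used here. The deposited values are normalized counts, a signal of 0 or above per gene and library. All values of a library (100%) were multiples of a single step within 0.01 reads, with a wider allowance for the largest counts. This returned the reads, and the inverse of the step was the size factor (0.796 to 1.35). Since the table holds normalized values, the test planned for normalized values was used: limma 3.58.1 in R 4.3.3 (lmFit, eBayes with a trend) with no covariate, on the log2 of the normalized count plus 1, for the 13255 genes whose mean reached 10, called at a Benjamini-Hochberg adjusted p-value under 0.05. Fold changes on this scale understate those of weakly expressed genes.

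The alternatives were scaling by library size alone and by TMM, pseudocounts of 0.1 and 10, no filter, at least 10 reads in every library, limma-voom, edgeR 4.0.16 and DESeq2 1.42.0 on the recovered reads, the replicate number as a block, a lowess trend with exonic length taken out of each library, and each library left out in turn. The main test was checked on simulated counts, with the same dispersion for all genes and libraries. No outlying library was simulated, so the check does not cover that feature of p21 OFF replicate 1. Same-numbered libraries of the groups were not treated as paired in the main test, since the labels name no shared culture or day.

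The members and lists were chosen with earlier results of these data known. The named genes are the 10 members, CDKN1A, PLK4, and the 4 largest falls and 4 largest rises among called genes of the list of 67, of which 4 were matched by an older symbol. Positions and transcript lengths are from GENCODE release 44 on GRCh37, the build of hg19. Promoter windows are from RefSeq (GRCh38.p14), and CENPJ was matched there as CPAP.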

Additional observations from a re-analysis of the deposited data

How the results depend on the processing

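SASS6, STIL, CENPJ, CEP152 and CEP135 were called lower under all 17 alternatives, with log2 fold changes of -1.03 to -0.93, -0.96 to -0.83, -0.9997 to -0.88, -0.80 to -0.71 and -0.80 to -0.67. The number of the 10 genes called lower was 5 to 8 and none was called higher under any alternative. Scaling by library size alone moved the median log2 fold change of the 10 genes to -0.44. It put the median over all genes at 0.05, and 63.0% of all calls were then higher, against 45.3%. With the length trend taken out, the median of the 10 genes was -0.59, CEP63 was called lower, and CEP192 (-0.047) and PCNT (-0.078) changed sign. With each library left out in turn, CEP192 ranged from -0.051 to 0.073 and PCNT from -0.031 to 0.086. Leaving out a library gave 695 to 1486 genes called higher and 887 to 1660 lower over all genes, and 4 to 12 of the other 67 centrosome genes higher. With the replicate number as a block the median of the 10 genes was -0.48 and the number called lower was 7. Deviations of same-numbered libraries from their group means correlated at -0.06 to -0.02, so the numbers gave no sign of pairing. The cause was not tested for any of these shifts. With 3 libraries a group, an exact permutation test of a single value cannot pass 0.1.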

Other observations

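The 67 other centrosome genes also cover structures outside duplication and the pericentriolar material. Among 11 appendage genes, which mark the older centriole and dock cilia, 4 were called lower and 2 higher by limma, where 12.7% of all genes tested were lower and 10.5% higher. CEP128, a protein of the subdistal appendages, had 254 ± 5.70 normalized counts with p21 OFF and 120.1 ± 9.67 with p21 ON (SD, n = 3 each) and fell by 1.07 on the log2 scale (limma adjusted p = 4.50e-07). FBF1, a distal appendage protein, rose by 0.35 on the log2 scale (limma adjusted p = 0.00615), and this call was lost without p21 ON replicate 1 or p21 ON replicate 3. Among 6 genes of the linker that holds the centrosomes together, NEK2, the kinase that dissolves the linker before mitosis, fell from 471 ± 21.9 to 181.7 ± 7.80 (SD, n = 3 each; log2 fold change -1.37, limma adjusted p = 1.19e-09). In the same group LRRC45, a linker protein, rose by 0.41 (limma adjusted p = 0.000674) and was called under all 17 alternatives. Of 5 centriolar satellite genes 1 was called higher and none lower (also 0 lower at an unadjusted p under 0.05). That gene was CEP290, a ciliary transition zone and satellite protein, at 464 ± 23.3 and 581 ± 11.4 normalized counts (SD, n = 3 each; log2 fold change 0.33, limma adjusted p = 0.00457). With the length trend taken out it was not called, with a log2 fold change of 0.19.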
